A study of Homo sapiens with 48 samples.

Results

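GLIS3 CRISPRko fibroblasts were compared after 24 h with TGFβ and IL-1β and without the cytokines (0 h). The comparison used the 3 libraries of GLIS3 CRISPRko cells at 24 h and the 3 at 0 h, 6 of the 48 libraries of the series, and took each library's group from its labels. All cells derived from IL11mNG fibroblasts, cells of the immortalized human fibroblast line CRL-4001 in which the fluorescent protein mNeonGreen was inserted at IL11 and which were taken on from sorted single-cell clones. They carried Cas9 and a lentiviral guide RNA against GLIS3, and the drug-selected cells were kept as a bulk population, so each library pooled cells that could hold different edits or none. The cytokines were used at 10 ng/ml each, were added in reverse order of time and all cells were collected together, so that the 0 h cells were never exposed to them. Fresh medium went on with or without the cytokines at the times of the series, so time since the medium change could differ between groups. Its effect was not tested. GLIS3 CRISPRko cells at 6 and 12 h served to show the path between both ends, and Cas9 cells with a non-targeting guide (control) at 0 and 24 h gave the same comparison with the gene untargeted. Every group held 3 libraries. The study's reporting notes speak of independent biological replicates for its in vitro work in general, while the labels do not say whether these libraries came from separate cultures. If they did not, the p-values measure only the spread between libraries, which may be technical.

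TGFβ binds type I and type II serine/threonine kinase receptors that phosphorylate SMAD2 and SMAD3, and these carry SMAD4 into the nucleus. IL-1β binds IL1R1 and IL1RAP and acts through MYD88 and IRAK kinases on NF-κB, which is held in the cytoplasm by IκB proteins, and on the MAP kinases that drive AP-1. In fibroblasts TGFβ is known for matrix production and contractile differentiation and IL-1β for cytokines, chemokines and matrix-degrading enzymes. GLIS3 is a zinc finger transcription factor of the GLI-similar family. The comparison asks which part of this response was present a day after the cytokines were added to cells with the GLIS3 guide.

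The targeted gene was examined first. The GLIS3 guide matched a single site with a GG motif at its 3′ end in GRCh38, on the minus strand at chr9:4117887-4117906, within the coding sequence in exon 4 of GLIS3. The guide is shown in capitals within the site, read 5′ to 3′ on the minus strand, and the GGG that follows it is its PAM.
GLIS3 guide site: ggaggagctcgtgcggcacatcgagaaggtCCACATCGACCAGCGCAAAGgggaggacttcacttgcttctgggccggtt
GLIS3 stood at 0.354, 0.144 and 0.395 CPM (counts scaled to a common library size, with TMM-adjusted totals) in replicates 1, 2 and 3 at 0 h. At 24 h it stood at 1.04, 1.21 and 1.63 CPM. All 24 h libraries were above all 0 h libraries, although the values rest on 6 counts summed over the 0 h libraries and 33 over the 24 h libraries. The fitted log2 fold change was 2.08 (SE 0.57, adjusted p = 0.00984, edgeR). Without replicate 2 at 0 h it was 1.76 (adjusted p = 0.0677), and without replicate 3 at 24 h it was 1.81 (adjusted p = 0.0699), so the call rested on these libraries. GLIS3 was already at 1.49 ± 0.121 CPM (SD, n = 3) at 6 h. In control cells GLIS3 stood at 1.88 ± 0.378 CPM at 0 h and 3.03 ± 0.693 CPM at 24 h, above the GLIS3 CRISPRko libraries at both times. The log2 fold change there was 0.70, and the difference between the responses was 1.38 (95% interval -0.09 to 2.85). A cut gene can leave transcripts that are still counted, so the level of GLIS3 RNA does not measure the share of cells that were edited.

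The 0 h libraries held 5064089 to 6827644 estimated counts and the 24 h libraries 2761335 to 8542400. Replicate 3 stood apart at both times, with TMM factors of 1.5 and 1.51 and 30.7% and 31.4% of counts in the 50 most abundant genes, against 39.01% to 44.4% in the other 4 libraries. Many abundant genes were lowest in replicate 3 on the CPM scale. The main counts are therefore also given without both replicate 3 libraries. The labels give skin as the tissue. The 8 fibroblast markers were all detected and summed to 19911 to 24065 TPM (a level scaled for transcript length and library) at 0 h and 18926 to 32018 TPM at 24 h. Of 6 epithelial markers, EPCAM and KRT5 were at 0 in all 6 libraries and CDH1 and KRT14 stayed below 0.4 TPM, while the summed level, carried by KRT18 and KRT8, lay between 2150 and 2444 TPM at 0 h and between 362 and 532 TPM at 24 h. Endothelial CDH5 and KDR, leukocyte CD3E and LYZ, melanocyte MLANA, TYR and DCT, and all 4 adipocyte markers were at 0 in all 6 libraries. The endothelial sum was at most 0.583 TPM at 0 h and 0.935 to 2.30 TPM at 24 h, the leukocyte sum, carried by CD68, 27.3 to 43.6 TPM and 37.5 to 57.1 TPM, and the melanocyte sum at most 0.879 TPM. In bulk RNA, fewer cells that express a gene and less RNA per cell cannot be told apart.

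The difference from cells without the cytokines was still broad at 24 h. Of 10962 genes tested, 1737 (15.8%) differed from 0 h at an adjusted p under 0.05, 994 higher (9.07%) and 743 lower (6.78%). The higher genes had a median log2 fold change of 1.05 and the lower genes of -0.80, while the median over all genes tested was 0.02. At least 2-fold changes were found in 521 genes upward (4.75%) and 264 downward (2.41%), and at least 8-fold changes in 103 upward and 27 downward. The 3 libraries of each time did not overlap in 919 of the 994 higher genes and 666 of the 743 lower genes, against 2889 of all genes tested (26.4%). The share of calls that were upward, 57.2%, was 63.1% with library totals in place of TMM (987 genes called, median of all genes 0.09). With both scaling and test changed, to limma on TPM, it was 75.0% on log2(TPM + 1) with 775 genes called and 76.7% on log2(TPM + 0.1) with 696, where the median of all genes was 0.13 and 0.16. Without both replicate 3 libraries 1408 genes were called, 793 higher and 615 lower, of which 1200 were among the 1737. Without replicate 1 at 0 h alone the lower genes numbered 487.

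Set against 6 h, the changes at 24 h fell into different courses. Between 24 h and 6 h 2649 genes differed (24.2%), 1323 higher at 24 h (12.1%) and 1326 lower (12.1%). This comparison shares the 24 h libraries with the first, so its values are given beside them and not as separate support. Of the 994 genes above their 0 h level at 24 h, 329 were also above their 6 h level, 170 had come down from 6 h and 495 were not called against 6 h. Of the 743 genes below their 0 h level, 298 were also below 6 h, 14 had come up again (8 without replicate 2 and 7 without replicate 3 at 24 h, and 4 without both replicate 3 libraries) and 431 were not called. The split of the 24 h against 6 h calls was sensitive to scaling. The upward share of 49.9% became 92.6% on log2(TPM + 1) and 91.1% with library totals alone, which moved the median of all genes from 0.08 to 0.53 and 0.66, and 37.9% without both replicate 3 libraries of 0 and 24 h. The 1323 genes higher at 24 h than at 6 h were 753 without replicate 2 at 6 h and 870.0 without replicate 3 at 24 h. The 170 genes higher than at 0 h that had come down from 6 h were then 55 on log2(TPM + 1) and 64 with library totals, and the 298 genes below both earlier times 61 and 111, while the 329 genes above both were 341 and 344. Without both replicate 3 libraries these last 3 classes held 150, 281 and 235 genes.

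The fastest courses differed by gene. LIF, a cytokine of the IL-6 family, peaked at 697 ± 184 CPM at 6 h, was 27.6 CPM at 12 h and 2.57 CPM at 24 h, a log2 fold change of -7.94 against 6 h. In contrast IGF2, an insulin-like growth factor, was at 0 in all 6 h libraries and at 11.1, 28.5 and 8.72 CPM in the 24 h libraries. COL10A1, the collagen of hypertrophic cartilage, had a mean of 0.108 CPM at 6 h, 3.98 CPM at 12 h and 14.99 CPM at 24 h. Of the genes above both earlier times, those with the largest rise from 6 h were IGF2, ANXA8L1, TEK, COL10A1 and ZP4. TEK encodes the angiopoietin receptor TIE2 and is counted above among the endothelial markers, and its call was lost without replicate 3 at 24 h (log2 fold change 2.10, adjusted p = 0.0715). ANXA8L1 shares reads with near-identical annexin A8 copies and its value is uncertain. Its call against 6 h was lost in DESeq2 (adjusted p = 0.0859), without each 6 h library in turn (adjusted p = 0.0777 to 0.0872) and without replicate 2 at 24 h (adjusted p = 0.0633). The largest falls from 6 h among genes still above 0 h belonged to LIF, CCL20, ANGPTL4, BCL2A1 and CXCL3. CCL20 and BCL2A1 were at 0 in all 0 h libraries and at or below 0.607 CPM at 24 h, on 7 and 9 counts, and both calls were lost when single libraries were left out. ANGPTL4, an inhibitor of lipoprotein lipase, fell from 348 ± 33.1 CPM at 6 h to 11.3 ± 1.84 CPM at 24 h and remained 5.29-fold above 0 h.

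**Figure D1:**
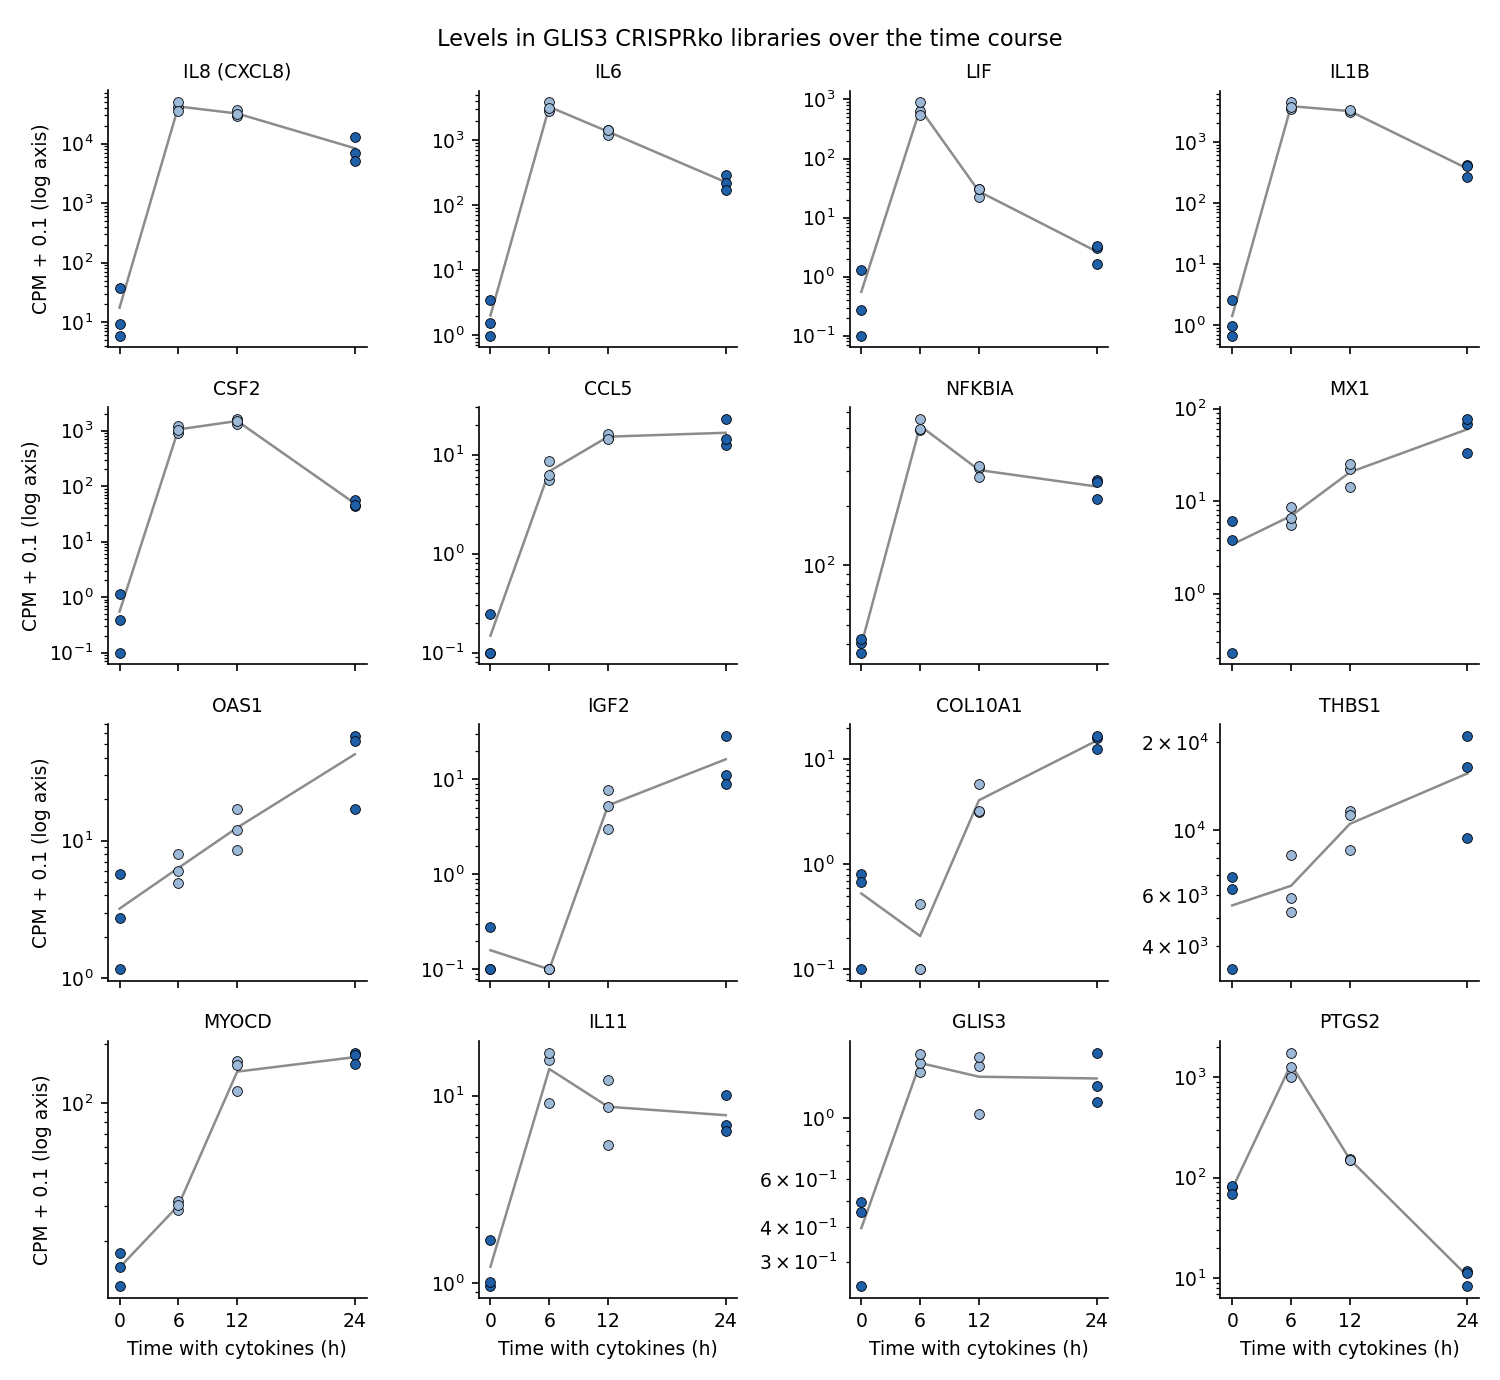
Levels of 16 genes in GLIS3 CRISPRko libraries at 0, 6, 12 and 24 h with the cytokines, in TMM-normalized CPM plus 0.1 on a log axis that differs between panels. Each point is a library (n = 3 per time), the 0 and 24 h libraries are drawn darker, and lines join the means: IL6, LIF, IL1B, CSF2 and PTGS2 came down from 6 h, while MX1, OAS1, IGF2, COL10A1 and THBS1 were highest at 24 h.

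The changes were then read by groups of genes of known role. Of the genes in each group, between 6 of 15 (GLI-family factors and Hedgehog) and all 16 of 16 (class I antigen presentation) had enough counts to be tested, and the counts that follow are of tested members. The filter took counts from all 8 groups of the arm. Genes absent at 0 h were therefore tested only because of libraries with cytokines, and could be called only upward. Over all genes tested 9.07% rose and 6.78% fell, and these shares are the background for the count of each group. Leaving out single libraries, or both replicate 3 libraries, changed the number of higher members in a group by at most 4 and that of lower members by at most 2.

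Chemokines, which recruit leukocytes, had the largest median change of the 26 groups, over tested members only. Of 19 members 12 were tested, and of these CXCL6 and CCL20 were at 0 in all 0 h libraries. Among the 12 members tested 10 rose and 1 fell. The median log2 fold change was 6.34, or 4.89 when genes absent at 0 h were set to their lower bound. IL8 (CXCL8), the main neutrophil attractant, stood at 5.83, 9.38 and 37.1 CPM at 0 h. At 24 h its level was 13051, 6962 and 5045 CPM, a rise of 479-fold (log2 fold change 8.88 ± 0.66 SE, adjusted p = 3.41e-12), and it was among the 5 genes of highest TPM among all that rose. The 24 h libraries lay far above those at 0 h, and yet IL8 had already come down from 42068 ± 7396 CPM at 6 h. CXCL1 went from 1.24, 0.721 and 1.84 CPM to 208, 207 and 141 CPM, with 2854 ± 791 CPM at 6 h. CXCL3 went from 0.177, 0.577 and 0.263 CPM to 54.96, 56.4 and 49.97 CPM and CXCL2 to 31.6, 37.9 and 34.8 CPM, a ratio of 230.2 (95% counting interval 78.5 to 1119) on 3 counts at 0 h. These ELR-motif chemokines are close copies of each other, and reads could be shared between them. CCL2, the monocyte attractant, stood at 11.7, 11.5 and 10.3 CPM at 0 h and 209, 107 and 107 CPM at 24 h, after 1822 ± 382 CPM at 6 h. Thus 7 members had come down from 6 h.

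A minority of chemokines took the opposite course. CCL5, which attracts T cells, was found in a single 0 h library with 1 count and stood at 22.8, 12.4 and 14.3 CPM at 24 h, above its 6.68 ± 1.54 CPM at 6 h (log2 fold change 1.34, adjusted p = 0.00165). Its ratio over 0 h was 339 (95% counting interval 60.5 to 13421). CXCL5 likewise stood at 1.44 ± 0.392 CPM at 6 h and 5.82 ± 0.793 CPM at 24 h, and CXCL6 was at 0 in all 0 h libraries and at 3.65, 11.5 and 3.97 CPM at 24 h, at least 14.1-fold higher with 3 counts per library as the floor. The homeostatic chemokine CXCL12 was the member that fell, from 322, 279 and 175 CPM to 159, 146 and 88.3 CPM (log2 fold change -0.99 ± 0.24, adjusted p = 0.00306), and its libraries did not overlap. In all, 3 chemokines were above their 6 h level.

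The promoters of the genes tested were read from RefSeq (GRCh38.p14), and 8885 of the 10962 genes had an entry. The κB motif, the binding sequence of NF-κB, was searched on both strands from 250 bases before to 50 bases after the start, and it was found in 25.3% of the 75 promoters of genes at least 8-fold higher. The share was 10.4% for all higher genes, 14.7% for those that had come down from 6 h, 9.70% for those above 6 h, 5.98% for lower genes, 6.42% for all genes tested and 5.72% for all promoters. A match describes the sequence and is no evidence of binding. The stretch of 150 bases before the start is shown for CXCL1 at chr4:73869243-73869392 (plus strand), CXCL2 at chr4:74099196-74099345 (minus strand), CXCL6 at chr4:73836528-73836677 (plus strand) and the IκBα gene NFKBIA at chr14:35404750-35404899 (minus strand), each read 5′ to 3′ on the strand of its gene. Capitals mark the κB match, and the same 11 bases stand in all 3 chemokine promoters shown, where they match the motif on both strands at neighbouring positions. These promoters were picked as examples, and matches were not counted over the chemokines as a group.
CXCL1: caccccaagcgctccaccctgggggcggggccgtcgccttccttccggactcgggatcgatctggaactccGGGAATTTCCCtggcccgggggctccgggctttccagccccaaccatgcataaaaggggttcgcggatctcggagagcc
CXCL2: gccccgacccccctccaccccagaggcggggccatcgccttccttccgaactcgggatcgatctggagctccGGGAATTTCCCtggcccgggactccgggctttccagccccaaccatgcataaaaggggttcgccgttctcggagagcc
CXCL6: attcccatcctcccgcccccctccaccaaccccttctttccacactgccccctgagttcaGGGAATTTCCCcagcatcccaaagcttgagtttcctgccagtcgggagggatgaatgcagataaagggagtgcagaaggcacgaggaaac
NFKBIA: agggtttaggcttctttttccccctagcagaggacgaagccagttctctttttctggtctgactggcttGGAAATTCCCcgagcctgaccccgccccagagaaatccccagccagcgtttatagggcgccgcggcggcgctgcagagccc

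Colony-stimulating factors and other stromal cytokines moved likewise, with 8 of 11 members higher, 1 lower, a median log2 fold change of 3.86 and 6 members below their 6 h level. CSF3, the granulocyte growth factor, was absent from all 0 h libraries and stood at 18.2, 22.5 and 10.4 CPM at 24 h, at least 37.6-fold higher, after 65.3 ± 10.8 CPM at 6 h. CSF2 (GM-CSF) stood at 0, 0.288 and 1.05 CPM at 0 h and 44.5, 55.8 and 45.5 CPM at 24 h, a rise of 109-fold, and had been at 1054 ± 156 CPM at 6 h. The 24 h level of CSF2 was thus well above 0 h and far below 6 h in every library. IL1B itself, the gene of one of the added cytokines, went from 0.884, 0.577 and 2.501 CPM to 425, 406 and 261 CPM (275-fold, adjusted p = 1.07e-15), with 3822 ± 552 CPM at 6 h. IL1A went to 7.94, 9.41 and 6.38 CPM, a ratio of 73.7 (95% counting interval 20.1 to 614) on 2 counts at 0 h. IL32 was the exception, since its 26.1 ± 2.42 CPM at 24 h exceeded its 13.9 ± 2.74 CPM at 6 h as well as its 1.82 ± 0.745 CPM at 0 h. EDN1, which encodes the vasoconstrictor endothelin-1, rose 23.4-fold to 46.8, 36.1 and 32.1 CPM and was not called against 6 h. The member that fell was TNFRSF11B, the soluble RANKL receptor osteoprotegerin, at 4920.03, 4591 and 2369.8 CPM and then 1991, 1531 and 1137 CPM (log2 fold change -1.35 ± 0.31), a call lost when the 6 libraries were fitted alone (adjusted p = 0.0876).

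The IL-6 family signals through gp130 and STAT3, and 6 of its 9 tested members rose (4 without both replicate 3 libraries), with a median log2 fold change of 0.88. IL6 stood at 0.884, 1.44 and 3.42 CPM at 0 h and at 287, 216 and 174 CPM at 24 h, a rise of 118-fold (adjusted p = 1.34e-14). It had been at 3253 ± 516 CPM at 6 h, and 5 members of the family were below their 6 h level. IL11, the gene that carries the reporter, stood at 1.59, 0.865 and 0.922 CPM at 0 h. Its 24 h level was 6.903, 10.01 and 6.38 CPM, 6.897-fold higher (log2 fold change 2.75 ± 0.44 SE, adjusted p = 2.32e-05), and the libraries did not overlap. The levels of 13.8 ± 4.16 CPM at 6 h and 7.77 ± 1.96 CPM at 24 h did not pass the test of their difference (log2 fold change -0.85, adjusted p = 0.0864). LIF stood at 0.177, 0 and 1.18 CPM at 0 h and 2.995, 1.52 and 3.19 CPM at 24 h, a call that did not hold when the 6 libraries were fitted alone (adjusted p = 0.0627). The oncostatin M receptor gene OSMR rose to 81.3 ± 20.8 CPM from 28.1 ± 2.18 CPM, with 75.7 ± 9.78 CPM at 6 h.

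The IL11 promoter held a match to the AP-1 motif TGANTCA, given in capitals within the 150 bases before the start at chr19:55370464-55370613 (minus strand).
IL11: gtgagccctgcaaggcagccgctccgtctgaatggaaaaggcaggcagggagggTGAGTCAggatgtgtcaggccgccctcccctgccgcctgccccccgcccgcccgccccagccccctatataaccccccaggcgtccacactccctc
The motif occurred in 7.76% of all promoters, 4.40% of the genes tested, 6.24% of those higher and 17.3% of those at least 8-fold higher. The SMAD palindrome GTCTAGAC occurred in 0.201% of all promoters, in 0.135% of the genes tested (12 promoters) and in none of the 817 promoters of higher genes that had an entry. It is too rare for its absence from 817 promoters to be read. The TEAD motif GGAATG occurred in 12.4% of higher genes, against 10.7% of the genes tested.

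Genes of IL-1 receptor signalling and NF-κB, many of which encode inhibitors of the pathway, were higher in 16 of 28 members and lower in 1, with a median log2 fold change of 1.57. NFKBIA went from 40.1, 41.97 and 35.9 CPM to 271, 266 and 216 CPM (6.38-fold). TNFAIP3, the deubiquitinase A20 that limits NF-κB, went from 6.01, 5.48 and 5.27 CPM to 79.3, 79.2 and 69.5 CPM (13.6-fold), with close agreement among the libraries. ZC3H12A, an RNase that degrades cytokine mRNAs, went from 2.298, 2.16 and 1.05 CPM to 78.1, 74.9 and 50.1 CPM (36.8-fold). Each of these 3 negative regulators was below its 6 h level, and so were 13 of the 28 members. The mitochondrial superoxide dismutase gene SOD2 rose 65.3-fold, from 15.2, 13.8 and 15.4 CPM to 1358, 796 and 749 CPM, and was not called against its 1299 ± 204 CPM at 6 h. Among the subunits, RELB rose 5.15-fold and NFKB2 from 0.586 to 3.87 CPM. The adhesion molecule gene ICAM1 was at 2.53 ± 0.972 CPM at 0 h, 473 ± 93.6 CPM at 6 h and 46.8 ± 12.5 CPM at 24 h. SAA1 and SAA2, acute-phase genes, were at 0 in all 0 h libraries and rose after 6 h, SAA1 to 10.03, 8.19 and 9.89 CPM (at least 20.7-fold) and SAA2 to 4.298, 3.64 and 3.89 CPM (at least 8.73-fold), though these near-identical genes can share reads.

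Interferon-stimulated genes stood above both 0 h and 6 h in most cases. Of 29 members, 24 were higher at 24 h than at 0 h, none was lower, and the median log2 fold change was 1.98. Compared with 6 h, 20 members were higher and 2 lower. MX1, an antiviral GTPase, stood at 3.71, 6.06 and 0.132 CPM at 0 h and 68.8, 77.1 and 33.4 CPM at 24 h, and its 0 h libraries spread widely. Its mean was 6.83 CPM at 6 h and 20.4 CPM at 12 h, and the log2 fold change over 0 h was 4.18 ± 0.53 (adjusted p = 4.17e-07). OAS1, which synthesizes the activator of RNase L, went from 1.06, 5.63 and 2.63 CPM to 57.6, 52.5 and 16.7 CPM, and HERC6 from a mean of 8.002 CPM to 82.2 CPM. At 24 h replicate 3 was the lowest library for MX1, OAS1, RSAD2 and ISG15, and still lay above the highest 0 h library for each. Without both replicate 3 libraries 27 members were called higher. IRF1 and GBP1 ran against the rest, with IRF1 at 54.6 ± 9.59 CPM at 6 h and 16.9 ± 7.17 CPM at 24 h and GBP1 at 429 ± 94.04 and 280.2 ± 101 CPM.

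ISG15, a ubiquitin-like protein, stood at 56.4, 94.6 and 50.9 CPM at 0 h and 303, 304 and 111 CPM at 24 h (3.55-fold, adjusted p = 6.85e-05). The interferon-stimulated response element (ISRE) is a promoter sequence known from interferon-induced genes, and its motif stood in 10.4% of the 268 promoters of genes that were above both 0 h and 6 h. The share was 4.41% for higher genes that had come down from 6 h, 5.39% for all higher genes, 2.79% for the genes tested and 3.65% for all promoters. The ISG15 promoter at chr1:1013347-1013496 (plus strand) shows a pair of overlapping matches in capitals.
ISG15: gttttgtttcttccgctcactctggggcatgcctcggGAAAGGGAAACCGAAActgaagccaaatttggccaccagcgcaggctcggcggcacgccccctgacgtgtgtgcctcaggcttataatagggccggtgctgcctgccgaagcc

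Antigen presentation and complement genes were called in part. Of 16 genes of class I antigen presentation 7 rose and none fell, with a median log2 fold change of 0.66, among them the peptide transporter gene TAP1, from 74.3, 88.4 and 85.97 CPM to 213, 227 and 125 CPM, and the immunoproteasome subunit PSMB9 (log2 fold change 0.99 ± 0.24). The HLA class I genes share reads between copies and were read only as part of this count. Of 9 complement genes 4 rose and 1 fell, with a median of 0.37. C3, the central complement component, had 6 counts over the 0 h libraries and stood at 27.2, 30.04 and 21.02 CPM at 24 h, 91.8-fold higher and well above its 1.57 ± 1.54 CPM at 6 h (log2 fold change 3.90, adjusted p = 2.89e-07). C1R and C1S, the proteases of the C1 complex, rose 2.51-fold and 1.86-fold. C1QTNF1, a C1q-related secreted protein, rose 13.8-fold to 14.2, 16.7 and 13.8 CPM.

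**Figure D2:**
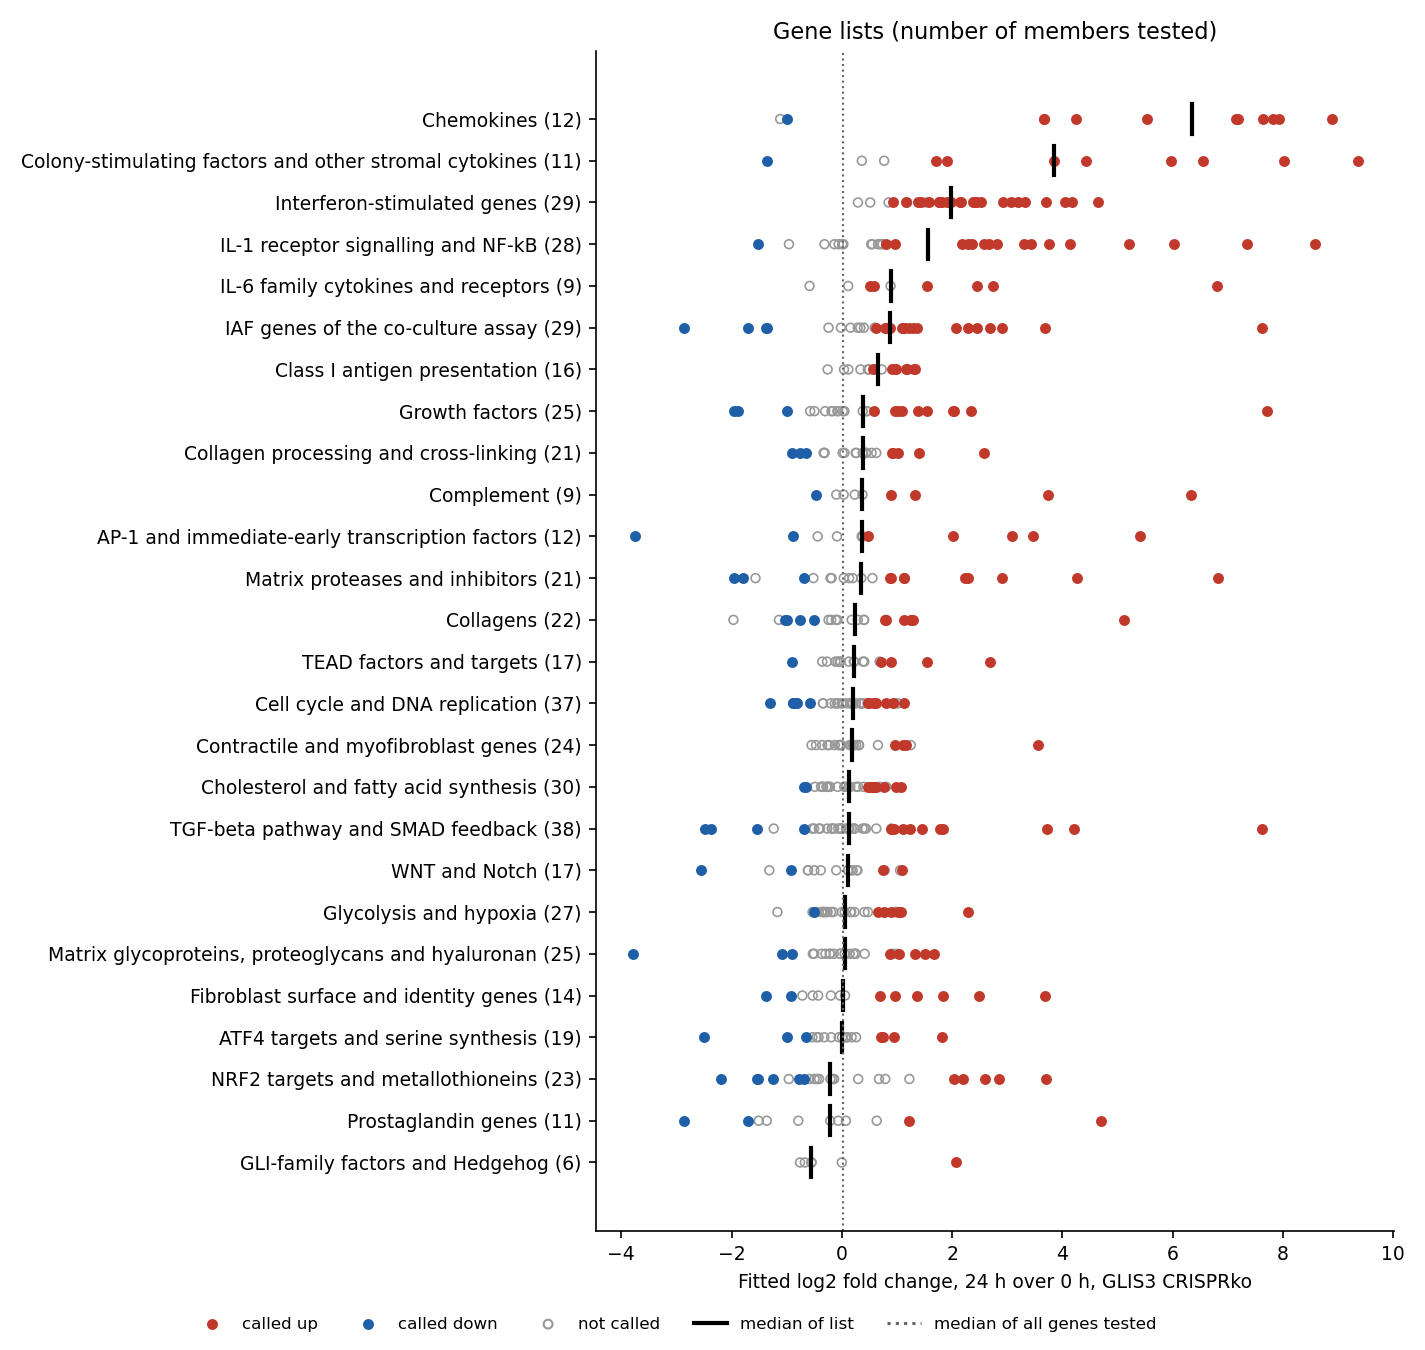
Fitted log2 fold changes at 24 h over 0 h in GLIS3 CRISPRko for the tested members of 26 gene lists, with each point a gene, filled where called at an adjusted p under 0.05, thick bars the list medians and the dotted line the median of all genes tested (0.02). Lists are ordered by median, from chemokines (6.34) to GLI-family factors and Hedgehog genes (-0.55).

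Most genes of the TGFβ pathway were not called, although a larger share was called than among all genes tested. Of 38 members 10 rose and 4 fell, against 9.07% and 6.78% of all genes tested. With changes in both directions, the median log2 fold change of 0.13 was close to that of all genes. Among ligands, INHBA, the activin A subunit, went from 0.354, 0.288 and 1.05 CPM to 146, 130.2 and 87.4 CPM (215-fold) after 640.3 ± 73.9 CPM at 6 h. TGFB2 went from 4.07, 3.32 and 4.61 CPM to 73.97, 41.9 and 43.6 CPM (13.3-fold) and was above its 6 h level (log2 fold change 0.95, adjusted p = 0.0122). In contrast BMP4 fell from 5.48, 6.06 and 3.55 CPM to 1.56, 0.607 and 0.623 CPM, and GDF15, a distant member of the family, from 4.596, 7.21 and 6.45 CPM to 1.17, 1.21 and 0.934 CPM. Among the signal carriers, SMAD3 fell from 9.37, 9.95 and 11.3 CPM to 4.17, 2.12 and 3.74 CPM (log2 fold change -1.53 ± 0.27, adjusted p = 9.79e-05). Among the inhibitors, SMAD7 went to 8.73, 7.28 and 10.1 CPM from 0.177, 3.89 and 3.03 CPM, PMEPA1 from 4 counts in all to 4.298, 2.73 and 4.75 CPM, and SKIL rose 2.78-fold. The BMP target ID1 had dropped to 16.2 ± 4.88 CPM at 6 h and was back at 217 ± 13.6 CPM at 24 h, which did not pass the test against its 289.9 ± 39.9 CPM at 0 h (adjusted p = 0.132). CTGF (CCN2), a matricellular target of TGFβ, went from 2531, 2449 and 1521 CPM to 7246, 5298 and 2728 CPM (log2 fold change 1.23 ± 0.34), but without replicate 1 at 24 h its log2 fold change was 0.89 (adjusted p = 0.068) and with the 6 libraries fitted alone it was also not called (adjusted p = 0.163). TGFBI, a secreted adhesion protein, rose 2.16-fold to 356, 316 and 260.2 CPM.

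The abundant fibrillar collagen genes COL1A1, COL1A2 and COL3A1 were not called. Of 22 collagen genes of all types 7 rose and 4 fell (7 and 2 without both replicate 3 libraries, and also 2 lower without replicate 2 or 3 at 0 h or replicate 3 at 24 h), with a median log2 fold change of 0.23. COL1A1 stood at 4102, 3098 and 1273 CPM at 0 h and 7676, 2647 and 889.7 CPM at 24 h, so that the 24 h libraries spread on both sides of those at 0 h (adjusted p = 0.648). Its log2 fold change lay between -0.68 and 0.88 as single libraries were left out. COL1A2 stood at 12938, 13766 and 7109 CPM and 17014, 8969.9 and 5394 CPM (adjusted p = 0.884) and COL3A1 at 784, 697 and 475 CPM and 1425, 463 and 501 CPM (adjusted p = 0.590), with the sign of both also open to the choice of libraries. COL10A1 rose 35.03-fold to 15.8, 16.7 and 12.5 CPM, COL7A1, which forms anchoring fibrils, 2.48-fold to 82.96, 93.8 and 71.8 CPM, and COL16A1 2.37-fold to 121, 78.3 and 91.4 CPM. The beaded-filament chains COL6A1 and COL6A2 rose 1.75-fold and 2.19-fold. COL11A1 fell from 57.5, 53.1 and 55.8 CPM to 36.99, 13.96 and 27.7 CPM and COL8A1 from 104, 121 and 88.9 CPM to 64.99, 58.9 and 60.5 CPM, and neither was called on log2(TPM + 1).

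Of 21 genes that process or cross-link collagen 5 rose and 3 fell, with a median log2 fold change of 0.38. The prolyl hydroxylases P4HA2 and LEPREL1 (P3H2) rose 2.65-fold and 5.97-fold, P4HA2 from 322, 368 and 244 CPM to 1040.1, 879 and 558 CPM and LEPREL1 from 33.9, 21.9 and 20.4 CPM to 220.2, 157 and 78.6 CPM. The lysyl oxidase gene LOXL4 rose 2.02-fold to 247 ± 57.6 CPM from a 6 h level of 120.4 ± 18.5 CPM that was no higher than at 0 h, BMP1, the procollagen C-proteinase, rose 1.895-fold, and LOXL3 fell from 357 ± 53.9 to 212 ± 22.2 CPM. The LOXL3 call was lost when the 6 libraries were fitted alone (adjusted p = 0.0607) and on both TPM scales (adjusted p = 0.147 and 0.169, limma). LOX itself was at 479.6 ± 83.8 CPM at 0 h, 1077 ± 288 CPM at 6 h and 382 ± 82.2 CPM at 24 h and was not called at 24 h.

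Matrix glycoproteins and hyaluronan genes were higher in 5 and lower in 3 of 25 members, with a median log2 fold change of 0.05. THBS1, thrombospondin-1, was among the most abundant transcripts that rose, from 6921, 6308 and 3334 CPM to 21034, 16489.8 and 9385 CPM (2.83-fold, adjusted p = 0.00340). It was above its 6 h level (log2 fold change 1.28), and its call was lost when the 6 libraries were fitted alone (adjusted p = 0.185). TNC, tenascin-C, rose 2.502-fold to 1725, 859 and 830.3 CPM from 465, 473 and 426 CPM. HAS2, which makes hyaluronan, peaked at 753 ± 214 CPM at 6 h and at 24 h remained 3.18-fold above 0 h, while KIAA1199 (CEMIP), which takes part in hyaluronan breakdown, fell from 23.2, 24.7 and 20.3 CPM to 2.08, 0.910 and 1.56 CPM, the largest fall of the list. The hyaluronidase gene HYAL2 fell as well (log2 fold change -0.90 ± 0.22), a call that was lost on log2(TPM + 1) and with library totals, and the hyaluronan-binding TNFAIP6 rose 1.82-fold. The proteoglycan gene DCN rose from 12.4 ± 3.26 to 25.02 ± 4.395 CPM, and the elastic fibre gene EFEMP1 fell from 91.01 ± 9.06 to 43.7 ± 9.68 CPM. FN1, fibronectin, stood at 25652, 26375 and 14595 CPM at 0 h and 62696, 36718 and 25919.9 CPM at 24 h and did not pass the test in edgeR (log2 fold change 0.91 ± 0.41, adjusted p = 0.143). It passed at a like fold change in DESeq2 (adjusted p = 0.0379), on log2(TPM + 1) (adjusted p = 0.00410, limma), on log2(TPM + 0.1) (adjusted p = 0.00630, limma) and with library totals (adjusted p = 4.63e-06).

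Several matrix-degrading enzymes were raised. Of 21 proteases and inhibitors 9 rose and 3 fell, with a median log2 fold change of 0.35. The collagenase MMP1 stood at 845, 884 and 543 CPM at 0 h and 5545, 3432 and 2099 CPM at 24 h (4.88-fold). The stromelysin MMP3 stood at 209, 264 and 208 CPM at 0 h and 2482, 1609 and 1007 CPM at 24 h (7.48-fold). MMP12 had 2 counts over the 0 h libraries and 20.7, 7.59 and 12.8 CPM at 24 h, a ratio of 147 (95% counting interval 40.5 to 1222). All 3 had separate libraries at both times, and none of them was called between 24 and 6 h. MMP10 rose from 0.317 to 6.29 CPM and MMP14, which activates MMP2, 2.19-fold. The gelatinase MMP2 stood at 523 ± 64.97 CPM at 6 h and 885 ± 398 CPM at 24 h, and its call over 0 h was lost when the 6 libraries were fitted alone (adjusted p = 0.0609). The inhibitor TIMP3 rose 4.71-fold, from 317, 285 and 234 CPM to 1628, 1325 and 984 CPM. The aggrecanase ADAMTS1 fell from 135, 134 and 109 CPM to 38.4, 26.1 and 42.7 CPM (log2 fold change -1.79 ± 0.16, adjusted p = 1.46e-10), and CTSL, a lysosomal cathepsin, from 227 ± 51.4 to 141 ± 6.697 CPM. The CTSL call was lost when the 6 libraries were fitted alone (adjusted p = 0.0658) and on both TPM scales (adjusted p = 0.144 and 0.158, limma).

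**Figure D3:**
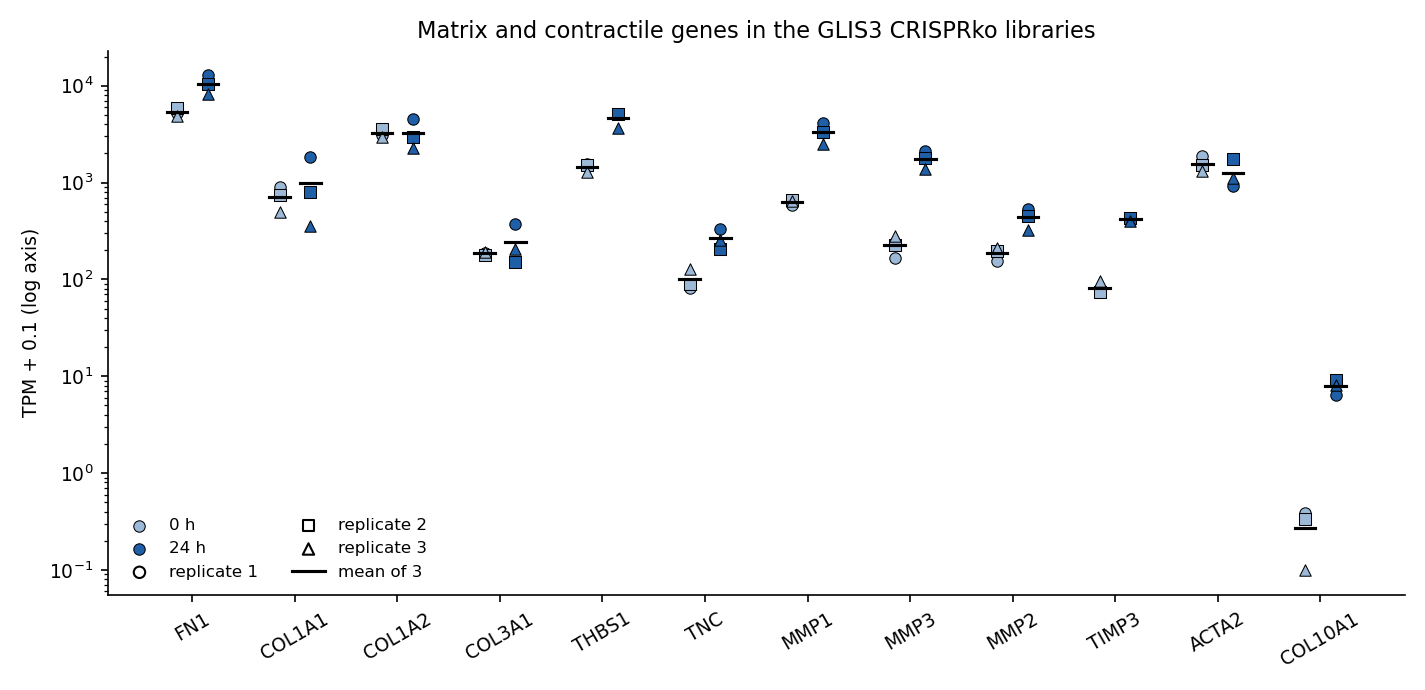
TPM plus 0.1 on a log axis for 12 matrix and contractile genes in GLIS3 CRISPRko libraries, 3 at 0 h (light) and 3 at 24 h (dark), with symbols for the replicates and bars for the means. MMP1, MMP3, MMP2, TIMP3, THBS1, TNC and COL10A1 were higher in all 24 h libraries, while COL1A1, COL1A2, COL3A1 and ACTA2 overlapped between the times.

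Of 24 contractile genes 4 rose and none fell at 24 h, a share near the 15.8% called among all genes tested, with a median log2 fold change of 0.18. ACTA2, the smooth muscle actin that marks myofibroblasts, stood at 1716, 1296 and 712 CPM at 0 h and 801, 1143 and 604 CPM at 24 h, with overlapping libraries (adjusted p = 0.317). MYOCD, a coactivator of the serum response factor SRF, rose from 11.7, 14.7 and 17.2 CPM to 181, 177 and 158 CPM (11.8-fold, adjusted p = 3.78e-14). It stood at 30.2 ± 1.63 CPM at 6 h and 145 CPM at 12 h. SRF rose 2.24-fold, and the thin-filament gene LMOD1 rose 2.15-fold, to 56.6 ± 16.8 CPM. The SRF call was lost without both replicate 3 libraries (adjusted p = 0.0553).

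Among AP-1 and immediate-early genes 5 of 12 rose and 2 fell, with a median log2 fold change of 0.37. IER3, an early response gene linked to cell survival, went from 15.4, 16.01 and 16.5 CPM to 1058, 596 and 369.8 CPM (42.3-fold), and JUNB from 15.7, 15.001 and 11.1 CPM to 77.6, 65.2 and 28.6 CPM (4.102-fold). ATF3, a stress-induced repressor, rose 11.4-fold and EGR2 from 0.424 to 4.17 CPM. EGR1 fell from 1.94, 2.74 and 1.71 CPM to 0, 0.607 and 0.0778 CPM, a ratio of 24 h to 0 h of 0.0591 (95% counting interval 0.0117 to 0.185) on 3 counts at 24 h. Of the 12 members 8 were below their 6 h level and none above. The TEAD factors, through which YAP and TAZ act on transcription, and their targets were higher in 4 and lower in 1 of 17 members (median 0.22). The kinase gene NUAK2 rose 6.35-fold to 13.98 ± 2.03 CPM, and the cofactor VGLL3 and TEAD3 rose 1.85-fold and 1.66-fold, both calls being lost with library totals. Of 6 GLI-family and Hedgehog genes tested GLIS3 alone was called, and the median was -0.55.

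Prostaglandin genes moved in both directions. PTGS2, the inducible cyclooxygenase COX-2, stood at 80.4, 81.6 and 68.99 CPM at 0 h, 1261, 1749 and 1001 CPM at 6 h and 11.7, 8.19 and 11.1 CPM at 24 h. The gene was thus far above 0 h at 6 h and, at 24 h, 7.46-fold below 0 h in non-overlapping libraries (adjusted p = 3.00e-10). PTGS1, the constitutive enzyme COX-1, took the opposite course, from 94.6, 76.9 and 83.99 CPM to 229, 215 and 149 CPM (2.32-fold, adjusted p = 1.30e-06), with 86.2 ± 4.07 CPM at 6 h. The prostaglandin transporter SLCO2A1 went from 4 counts in all to 9.51, 4.85 and 3.19 CPM. In all, 2 of 11 prostaglandin genes rose and 2 fell, with a median log2 fold change of -0.21.

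Of 25 growth factors and their binding proteins 10 rose and 3 fell, with a median log2 fold change of 0.38. IGF2 had 1 count over the 0 h libraries, and its ratio of 24 h to 0 h was 247 (95% counting interval 43.9 to 9772). Its carrier IGFBP3 rose 2.905-fold to 6203, 5219 and 2761 CPM and PAPPA, a protease that cleaves IGF binding proteins, 4.13-fold. The IGFBP3 call was lost when the 6 libraries were fitted alone (adjusted p = 0.0576). FGF2 stood at 24.5 ± 3.44 CPM at 0 h, 368 ± 134 CPM at 6 h and 98.2 ± 24.9 CPM at 24 h. FGF5 fell from 605, 612 and 422 CPM to 156, 123 and 141 CPM (3.903-fold lower), and ANGPT1, the ligand of TIE2, from 127, 108 and 108 CPM to 25.3, 28.8 and 38.1 CPM (3.71-fold lower). Both groups of libraries were well separated for FGF5 and ANGPT1. HBEGF had peaked at 167 ± 18.9 CPM at 6 h and was not called at 24 h (5.28 ± 0.382 CPM, against 3.99 ± 2.12 CPM at 0 h).

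WNT and Notch genes rose in 2 and fell in 2 of 17 members (median 0.11). DKK1, a secreted WNT antagonist, changed from 2242, 1784 and 1029 CPM to 266, 336 and 256 CPM (5.89-fold lower, adjusted p = 1.40e-09), and had reached 95.8 CPM at 12 h. WNT5B rose 1.68-fold. Among 14 surface and identity genes of fibroblasts 6 rose and 2 fell (median 0.01). CD82, a tetraspanin, went from 9.19, 11.97 and 8.43 CPM to 145, 136 and 104 CPM (13.002-fold). DPP4, the dipeptidyl peptidase CD26, went from 4.596, 5.34 and 6.06 CPM to 30.2, 30.9 and 29.7 CPM (5.69-fold), most of it after 12 h (10.3 CPM). CD55, a regulator of complement, rose 3.55-fold, the mesenchymal transcription factor PRRX1 2.604-fold, NT5E 1.96-fold and FAP 1.62-fold. The NT5E call was lost when the 6 libraries were fitted alone (adjusted p = 0.0756). The PDGF receptor PDGFRA fell from 37.01 ± 5.45 to 13.8 ± 3.38 CPM and TWIST2 from 52.6 ± 10.8 to 27.8 ± 10.1 CPM.

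Of 23 NRF2 targets and metallothioneins 5 rose and 6 fell, with a median log2 fold change of -0.21. The metallothioneins, which bind zinc, were among the risers. MT2A went from 968, 1013 and 558 CPM to 6623, 2728 and 2351 CPM (4.61-fold) and was one of the 5 genes of highest TPM among those that rose, although the spread at 24 h was wide. MT1X rose 7.17-fold to 43.5, 53.4 and 35.5 CPM and MT1E 4.07-fold, and reads can be shared among metallothionein copies. The zinc importer gene SLC39A14 rose 6.02-fold, from 74.1, 82.6 and 91.5 CPM to 739.7, 321 and 433 CPM. The MT2A promoter at chr16:56608434-56608583 (plus strand) is shown with its matches to the metal response element core TGCNCNC in capitals. This short motif stood in 62.7% of the promoters of higher genes and 63.3% of those of genes tested.
MT2A: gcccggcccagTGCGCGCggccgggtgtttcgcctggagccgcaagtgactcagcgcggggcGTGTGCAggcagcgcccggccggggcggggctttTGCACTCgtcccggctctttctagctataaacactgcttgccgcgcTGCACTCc
Those that fell included enzymes of redox balance under NRF2. NQO1 went from 1448, 1395 and 819 CPM to 438, 398 and 442 CPM (2.87-fold lower), and TXNRD1, thioredoxin reductase, from 1244, 1033 and 672 CPM to 382, 323 and 307 CPM (2.92-fold lower) after 3342 ± 701 CPM at 6 h. OSGIN1 and the transketolase gene TKT fell by 2.19 and 1.25 on the log2 scale. SLC7A11, the cystine transporter, fell from 66.3, 55.2 and 72.9 CPM to 7.03, 9.41 and 16.5 CPM (5.904-fold lower) and led the 3 genes that fell among 19 ATF4 targets and serine synthesis genes, of which 4 rose (median 0.01). Its partner chain SLC3A2 fell from 240.1 ± 51.1 to 121 ± 19.8 CPM, whereas the mTORC1 inhibitor DDIT4 rose 3.61-fold.

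Glycolysis, cell cycle and lipid synthesis genes had medians near that of all genes, while in each group a larger share rose than the 9.07% of all genes tested. Of 27 glycolysis and hypoxia genes 6 rose and 1 fell, with a median log2 fold change of 0.05. ENO2 rose 4.86-fold, HIF1A 1.85-fold and the glucose transporter SLC2A1 1.71-fold. Of 37 cell cycle and replication genes 8 rose and 6 fell (median 0.20). Those that rose included the replicative helicase subunits MCM2, MCM3 and MCM6 and the licensing factor CDC6, with MCM3 going from 82.2, 106 and 83.5 CPM to 150.2, 185 and 143 CPM and CDC6 from 20.5, 27.7 and 30.1 CPM to 46.5, 48.9 and 54.9 CPM. Those that fell included the mitotic genes CCNB1, from 336, 315 and 258 CPM to 179.6, 119.8 and 189.6 CPM, PLK1, from 230.2, 258 and 191 CPM to 140.1, 119.8 and 121 CPM, and CDC20 (log2 fold change -0.88 ± 0.20). The mitotic genes, MCM2 and MCM6 were not called on log2(TPM + 1), and MCM2 and MCM6 not with library totals. In control cells 3 of the 37 cell cycle and replication genes were called higher and 0 lower (median 0.15). No difference between the responses passed in edgeR for any of them. Of 30 genes of cholesterol and fatty acid synthesis 9 rose and 2 fell (median 0.14), among them MSMO1, which rose 1.99-fold. With library totals 2 of them were called higher and none lower, and 5 were higher without replicate 2 or 3 at 0 h or replicate 1 at 24 h. Inflammation-associated fibroblast (IAF) genes were the panel of a co-culture assay of the same work, and GLIS3 is among them. Of 29 IAF genes 18 rose and 4 fell, with a median log2 fold change of 0.87 (15 and 3 without both replicate 3 libraries). TNFRSF11B, PDGFRA and PTGS2 were among those that fell.

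By size of change, 10 genes with a mean of at least 10 CPM rose most: ZP4, C15orf48, CSF3, IL8, ADORA2A, IL1B, CCL5, IGF2, CXCL2 and INHBA. ZP4, a zona pellucida glycoprotein known from the egg coat, was at 0 in all 0 h libraries and at 72.8, 88.3 and 64.1 CPM at 24 h, at least 166-fold higher. It stood at 2.11 ± 0.256 CPM at 6 h and 43.6 CPM at 12 h, so that most of its rise came after 6 h (log2 fold change 5.12, adjusted p = 1.63e-14). C15orf48, which encodes a mitochondrial protein of the cytochrome c oxidase complex, had 5 counts over the 0 h libraries and stood at 307, 183 and 188 CPM at 24 h (963-fold). Its mean was 57.6 CPM at 6 h and 209.7 CPM at 12 h. ADORA2A, a receptor for adenosine, was at 0 in all 0 h libraries and at 11.1, 16.1 and 5.605 CPM at 24 h, at least 24.2-fold higher. AKR1B1, aldose reductase, was among the most abundant genes that rose, from 1175, 993 and 533 CPM to 4907, 3410.4 and 2408 CPM (3.97-fold), and was not called against 6 h.

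The 10 genes that fell most were MALL, KIAA1199, SLC38A11, SYPL2, TPD52L1, SPHKAP, RGS4, FHL1, AIM1 (CRYBG1) and PTGS2. MALL, a raft-associated membrane protein, went from 32.2, 37.5 and 33.97 CPM to 0.130, 1.21 and 0 CPM (77.1-fold lower, adjusted p = 1.98e-12), by way of 17.4 CPM at 6 h and 5.201 CPM at 12 h. SLC38A11, an amino acid transporter of the SLC38 family, went from 63.6, 45.7 and 45.3 CPM to 5.86, 7.28 and 0.701 CPM, with 45.7 ± 3.63 CPM at 6 h. SYPL2 went from 73.9, 82.6 and 60.3 CPM to 4.82, 8.19 and 9.19 CPM. FHL1, a LIM-domain protein, went from 744, 636 and 387 CPM to 66.9, 77.98 and 65.4 CPM (8.41-fold lower), with 437 ± 37.2 CPM at 6 h. RGS4, which turns off G protein signals, went from 10.96, 14.6 and 10.1 CPM to 1.17, 0.607 and 1.87 CPM and was at 2.92 ± 0.829 CPM at 6 h. SPHKAP, TPD52L1 and AIM1 were 8.68-fold, 7.96-fold and 9.299-fold lower at 24 h. KRT18, an intermediate filament gene that is also counted above among the epithelial markers, went from 2296, 2162 and 1192 CPM to 319, 302 and 293 CPM (6.18-fold lower), and KRT8, its partner, from 27.4 ± 2.51 to 10.97 ± 3.45 CPM. Both keratins were present at 0 h in cells with EPCAM and KRT5 at 0, and their part in other results was not tested.

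Among genes below 0 h at 24 h, a handful had been lower still at 6 h. CITED2, a transcriptional coregulator, stood at 79.02, 65.9 and 52.9 CPM at 0 h, 4.24 ± 1.06 CPM at 6 h and 15.4, 14.3 and 14.6 CPM at 24 h. MAB21L1 stood at 65.8, 61.01 and 49.8 CPM at 0 h, 3.98 ± 0.212 CPM at 6 h and 34.5, 24.3 and 43.7 CPM at 24 h, so that at 24 h it stood between both earlier levels. The transcription factor SIM1, PRICKLE1 and the cochaperone BAG2 followed the same course (BAG2 was not called on both TPM scales, with library totals or without both replicate 3 libraries), and the calls of MAB21L1, SIM1 and PRICKLE1 at 24 h were lost when single libraries were left out. Among those that had fallen furthest from 6 h were PTGS2, MALL, SCN2A and EGR1, of which SCN2A had 1 count over the 24 h libraries. The most abundant genes called lower by TPM were RPS18, RPSA, RPL17, RPL31 and TNFRSF11B. The ribosomal protein genes fell by 0.66 to 0.78 on the log2 scale, have many processed pseudogenes that can take or give reads, and all lost their calls without single libraries. RPSA stood at 3531, 2901 and 1776 CPM at 0 h and 1665, 1697 and 1508 CPM at 24 h, a narrow separation in which replicate 3 at 0 h lay next to the 24 h libraries.

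The same comparison in control CRISPRko cells called 1125 of 10962 genes (10.3%), 716 higher (6.53%) and 409 lower (3.73%). It shares no library with the comparison above. Which kind of cell had more calls depended on the fit. With only the 6 libraries of each comparison fitted, 997 genes were called in GLIS3 CRISPRko cells and 1494 in control cells. Of the 994 genes higher in GLIS3 CRISPRko cells 535 were called higher in control cells as well, 53.8% of the first list and 74.7% of the second. Of the lower genes 281 were shared, 37.8% and 68.7% of each list, and no gene was called in opposite directions. Genes called higher in GLIS3 CRISPRko cells had the same sign in control cells in 941 of 994 cases, with median log2 fold changes of 1.05 and 0.78, and those called lower in 715 of 743 cases, with -0.80 and -0.52, where the choice of the genes by the first comparison favours larger values there. Across the 10962 genes Pearson's r between the log2 fold changes was 0.70, a description over genes that are not independent replicates. The control split of 63.6% upward calls was 44.9% on log2(TPM + 1) and 43.4% with library totals, which moved the median of all genes to -0.16 and -0.21. The 409 lower genes of control cells were 256 without their replicate 2 at 0 h, 258 without replicate 1 at 24 h and 271 without replicate 3 at 24 h.

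The difference between the responses was tested directly as an interaction. In edgeR 0 genes passed (0%). An unadjusted p under 0.05 was found for 616 genes (5.62% of those tested), a share close to that threshold itself. DESeq2 called 1 gene (SYS1-DBNDD2), edgeR without the filter on low counts 21 (11 higher and 10 lower) and limma 0. The intervals rest on approximate SEs and were wide, with a median SE of 0.37. The 95% interval lay within 1 log2 unit of no difference for 925 of the 1737 genes called (53.3%). The 5 genes of lowest p did not pass in edgeR with the filter, and 3 of them, SYS1-DBNDD2, DPP4 and PEX5, passed without it. SYS1-DBNDD2, a readthrough transcript that shares exons with its neighbours, was at 0.707, 0.433 and 0 CPM in GLIS3 CRISPRko libraries at 0 h and at 0 in all 3 at 24 h. In control cells it was at 0 in all 3 libraries at 0 h and at 2.28, 1.87 and 2.85 CPM at 24 h. Its difference had an adjusted p of 0.290 in edgeR, 3.33e-04 without the filter and 0.00484 in DESeq2, and with groups at 0 on both sides the fitted size of -10.56 depends on the prior count. DPP4 rose by 2.49 on the log2 scale in GLIS3 CRISPRko cells and by 0.91 in control cells (difference 1.58, 95% interval 0.89 to 2.28, adjusted p = 0.290 with the filter and 0.0209 without it). PPP1R3C, a glycogen-targeting subunit of protein phosphatase 1, gave a difference of 1.52 (adjusted p = 0.421), PEX5, the peroxisomal import receptor, 2.08 (adjusted p = 0.607, and 0.0434 without the filter) and ZNF644 1.14 (adjusted p = 0.669). For IL11 the log2 fold change was 2.75 in GLIS3 CRISPRko cells and 1.79 in control cells (difference 0.96, 95% interval -0.33 to 2.25, adjusted p = 0.878). Its mean at 0 h was 1.13 ± 0.404 CPM in GLIS3 CRISPRko cells and 2.37 ± 0.898 CPM in control cells. At 24 h the means were 7.77 ± 1.96 and 8.60 ± 5.12 CPM, so the larger fold change went with a lower start and not with a higher level. For IL8 the log2 fold change was 8.88 and 10.43 (difference -1.54, 95% interval -3.00 to -0.09, adjusted p = 0.864). The SE of this difference, 0.71, was hardly above those of the separate responses, 0.66 and 0.71. The interval may therefore be too narrow, and its end short of no difference is not read.

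Individual members of the groups described above had intervals of different width. PTGS2 fell in both kinds of cell, by 2.86 on the log2 scale with the GLIS3 guide and 2.41 without it, a difference of -0.45 (-1.18 to 0.29). CD82 rose by 3.69 and 3.72 (difference -0.03, -0.57 to 0.51). MMP3 rose by 2.90 and 3.36 (-0.46, -1.32 to 0.41) and MMP1 by 2.29 and 2.87 (-0.58, -1.48 to 0.32). C3 rose by 6.34 and 4.05 (2.29, 0.59 to 3.99, adjusted p = 0.836), and CCL2 by 3.66 and 5.29 (-1.63, -2.52 to -0.74, adjusted p = 0.836). No difference between the responses was called for any of these genes, while the intervals of MMP3, MMP1, C3, CCL2 and PTGS2 reach beyond 2-fold. The interferon-stimulated genes were higher in 23 of 29 members in control cells, the chemokines in 9 of 12, and the NF-κB genes in 17 of 28. Some other groups differed more. In control cells 3 of 37 cell cycle genes rose and 0 fell, against 8 and 6. WNT and Notch genes rose in 1 and fell in 5 of 17, against 2 and 2. Class I genes rose in 4 of 16, against 7. The unadjusted interaction p (edgeR) was under 0.05 for 6 of 37 cell cycle genes, 3 of 12 chemokines, 3 of 9 complement genes and 0 of 22 collagens.

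**Figure D4:**
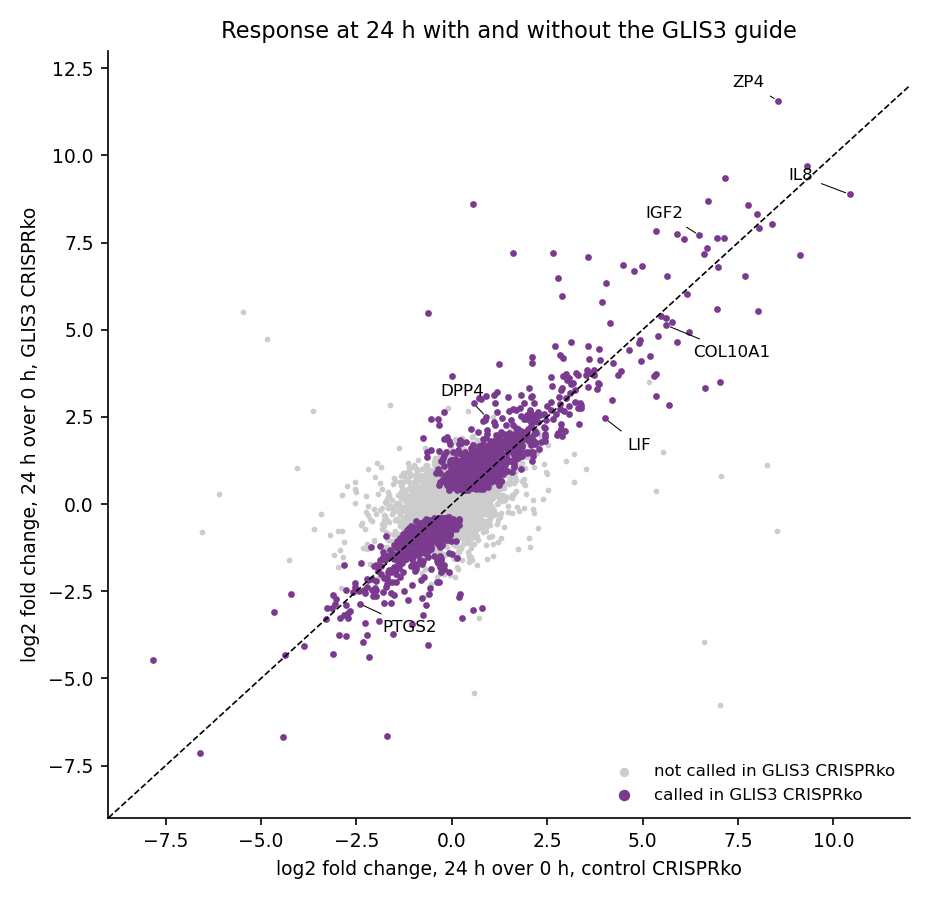
Fitted log2 fold change at 24 h over 0 h for the 10962 genes tested, in control CRISPRko cells (horizontal) and GLIS3 CRISPRko cells (vertical), with the 1737 genes called in GLIS3 CRISPRko cells in purple and equality dashed. Called genes lie in the quadrants of equal sign in 941 of 994 and 715 of 743 cases, and DPP4 (2.49 against 0.91) lies above the dashed line.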

How the data were processed

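RNA of 3 libraries per group was sequenced from mRNA (Nextera XT, NextSeq 500). Per the labels and the study's methods, the authors trimmed reads with Trim Galore after FastQC and bcl2fastq, removed ribosomal RNA reads, and aligned with STAR to GRCh38 before Salmon quantification. Versions, annotation and strand setting were not given in the sources used here. The authors deposited a table of estimated counts per gene, of which 6.2% were not whole and were rounded, and a table of TPM, which is scaled for length and library. Both tables list 29744 genes.

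The 24 libraries of the CRISPRko arm (8 groups) were fitted together in edgeR 4.0.16 (R 4.3.3) with TMM, genes kept by filterByExpr at a minimum count of 10 and a total of 15. The quasi-likelihood test gave p-values, which were adjusted by Benjamini-Hochberg over 10962 genes. CPM are counts over the TMM-scaled library total, as edgeR's cpm gives them, and fold changes from means of CPM are linear ratios. Errors after ± are SDs (n = 3) for levels and SEs for log2 fold changes. These SEs were worked back from the fold change and its test and are not standard errors of the fit. They are approximate, as are the intervals of log2 fold changes and of their differences built on them. For ZP4, at 0 in all 0 h libraries, they were 0.46 and 0.44 for the responses in GLIS3 CRISPRko and control cells. For the difference between these responses the SE was 1.69. A gene absent at 0 h was given a lower bound from 3 counts per library, and intervals of ratios on 1 to 3 counts cover counting error only. The script was tested on simulated data.

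Named genes were GLIS3 and IL11, the 10 that rose and the 10 that fell most (libraries not overlapping, at least 10 CPM in the higher group), the 5 of highest TPM in each direction, the 5 of lowest interaction p, the 5 moving most against 6 h in each class, and members of the lists. The comparison, the lists and the rule were chosen with earlier results of these data known. Alternatives were DESeq2 1.42.0, its size factors, no filter, only the libraries compared, the replicate number as a block, tests of TPM in limma 3.58.1 (log scale, pseudocount 1 or 0.1), a minimum change and leaving out each library. Leaving out both replicate 3 libraries and scaling by library totals were added after seeing the data. No replicate pair held identical values or agreed within counting noise (chi-square per degree of freedom at least 3.72). The CRISPRa arm was not used here. A few genes that the rule names are not reported here.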

Additional observations from a re-analysis of the deposited data

How the results depend on the processing

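The count of genes called between 24 and 0 h in GLIS3 CRISPRko cells (1737) lay between 1704 and 1797 with DESeq2 (1753), its size factors, no filter and the replicate block. It was 997 when only the 6 libraries were fitted, 775 on log2(TPM + 1), 696 on log2(TPM + 0.1), 987 with library totals and 785 with a log2 fold change of at least 1 as well. Between 24 and 6 h (2649) the count was 4065 on log2(TPM + 1), 3923 on log2(TPM + 0.1), 4150.0 with library totals, 2106 without both replicate 3 libraries and 1291 with the minimum change. In control cells (1125) it was 579 and 567 on both TPM scales, 731 with library totals, 582 with the minimum change and 1494 with only the 6 libraries. For the difference between the responses, DESeq2 called 1 gene, the fit without filter 21 and the other alternatives 0. As single libraries were left out, the counts ran from 1260.0 to 1780.0, from 1771 to 2725, from 778 to 882 and stayed at 0. The cause of these shifts was not tested. The sign of COL1A1 (-0.68 to 0.88 over single libraries left out), COL1A2 (-0.65 to 0.21) and COL3A1 (-0.44 to 0.59) turned, with COL1A2 at 0.00, 0.06, 0.02 and 0.21 without replicates 1 and 2 at 0 h and replicates 2 and 3 at 24 h. The COL1A1 and COL3A1 signs turned without replicate 1 at 24 h. Of 187 genes that the text or its rule names, 170 kept their side of the threshold with every single library left out, and 140 did so under all alternatives run. Calls were lost for BMP4, EFEMP1, TWIST2 and WNT5B on log2(TPM + 0.1), for PSMB9 with library totals and for CDC20 when only the 6 libraries were fitted.

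The labels do not say that a replicate number marks a shared culture or day, and the numbers were not read as pairs. Deviations from the group means at 0 and 24 h correlated by 0.094, -0.028 and 0.19 for replicates 1, 2 and 3, so that replicate 3 alone passed 0.1. With the replicate block 1704 genes (984 higher, 720.0 lower) were called between 24 and 0 h, 2578 between 24 and 6 h, 1101 in control cells and 0 for the difference, and RPS18, RPSA and RPL31 were no longer called (adjusted p = 0.0542, 0.0557 and 0.0565, edgeR). The depth of 2761335 counts in the shallowest library limits genes of a few counts, whose ratios carry the widest intervals.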
